A study of Mus musculus with 5 samples.

Results

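Eif4a2 encodes eIF4A-II, an RNA helicase of the DEAD-box family that works in translation initiation. Its cassette exons, which a transcript either holds or skips, were followed in the left ventricle of diabetic and control mice. They are all the events of Eif4a2 in 6 tables of cassette exons, 5 of the 6616 events in all, and each of the 5 was in every table. The files give the gene name for 1 of them, exon and intron lengths matched Eif4a2 in a mouse annotation for 3, and the last shares an exon with a named event. The gene was chosen by the Psi (exon inclusion) and read classes of these same libraries, which differed widely between the groups, so its values below are a description and carry no test.

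The STZ group held 3 samples of C57BL/6 mice injected with streptozotocin, a toxin of pancreatic beta cells that leaves mice short of insulin, at 70 mg/kg on each of 5 days. The Control group held 2 samples of C57BL/6 mice that received citrate buffer, the solvent of the drug, over the same days. All were injected from 8 weeks of age and were 12 weeks old at sampling, and no blood glucose stands in the labels used here. The samples of a group are numbered without a statement that each is a separate animal, so p-values measure only the spread between these samples, which may be technical.

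Library codes in the tables correspond to none of the sample titles. The 3 libraries that fill one side of the tables were read as STZ and the 2 on the other side as Control, with nothing but the sizes of the groups to go by, and are named STZ A, STZ B, STZ C, Control A and Control B. The codes form a pair of series that split as the groups do, so handling and treatment cannot be told apart. The STZ libraries had 12692236 to 14913419 reads on the events and the Control libraries 17154734 and 20963751. Events of the 6 heart muscle genes with data, such as Ttn and Tnnt2, took 57096 to 69702 reads per 1000000 event reads of the library (RPM) in STZ and 102031 and 102918 in Control. Of 5 endothelial markers only Pecam1 had events, with 3107 to 5332 RPM in STZ and 1396 and 1548 in Control. Myh11, the 1 of 4 smooth muscle markers with events, had 181 in STZ A and 155 in STZ C, with STZ B between these and the 49.6 and 56.4 of Control B and Control A, 2 of 7 fibroblast markers together had 98.0 to 165 and 213 and 239, and 2 of 5 leukocyte markers 58.5 to 132 and 70.6 and 82.3. None of the 3 liver genes looked for had an event. In bulk tissue fewer cells of a type and less RNA per cell cannot be told apart, and the part of this shift in any value below was not tested.

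The helicase eIF4A joins the cap-binding protein eIF4E and the scaffold eIF4G in the eIF4F complex, where it unwinds the 5′ end of the mRNA so that the small ribosomal subunit can bind and scan. Mammals have a pair of close paralogs for this task, Eif4a1 and Eif4a2, while Eif4a3 serves in the exon junction complex. A cassette exon that brings a stop codon ahead of the last splice junction is called a poison exon, since such mRNAs are usually removed by nonsense-mediated decay. Several introns of Eif4a2 also carry small nucleolar RNAs.

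The cassette exon with the widest difference between the groups lies on the plus strand of chromosome 16, between a coding exon of 80 nt and the last exon of the gene, and is in the tables in a long and a short form. The long form runs from 23112424 to 23112534 in mm9. The short form has the same flanking exons and the same start but ends at 23112530, 4 bases earlier, and is 107 nt long. The GENCODE M21 annotation, of build GRCm38, gives 25 transcripts of Eif4a2. The exon of 107 nt is in 2 of them, Eif4a2-204, of the class nonsense-mediated decay, and Eif4a2-224, of the class protein coding. No transcript there has the long form, but Eif4a2-202 ends in a 1596-nt exon that begins at the same base. Because the mm9 sequence was not used here, the sequences below were read from these GENCODE transcripts, and the exons of both builds were matched by length, not by coordinate.

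Both forms of the exon bring the same in-frame stop codon, in bases 8 to 10 of the exon. The first sequence shows the last 30 bases of the 80-nt exon (GRCm38 chr16:23111867-23111896) joined to the first 10 of the cassette exon (chr16:23112351-23112360), with the stop in capitals, and the second shows the same 30 bases joined to the first 30 of the last exon (chr16:23113167-23113196), where the frame has no stop in this window. The third shows the 3′ end of the cassette exon (chr16:23112448-23112471), all on the plus strand and 5′ to 3′, with the 4 bases that only the long form holds in capitals.
Cassette exon included: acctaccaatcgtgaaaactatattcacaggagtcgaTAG
Cassette exon skipped: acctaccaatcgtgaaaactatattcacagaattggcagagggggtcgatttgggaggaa
End of the cassette exon: taaagagcgaGTCGgtatttatat
With the exon, the reading frame closes after 362 codons, against 407 codons in the isoform that skips it, and 101 bases of the long form or 97 of the short form follow the stop before the next junction. The bases after the end of the short form and after that of the long form are both GT, the start of a usual 5′ splice site, so the forms end at tandem donor sites 4 bases apart. The stop lies ahead of both donors. The length of the long form is a multiple of 3, but with this stop it does not keep the full reading frame.

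**Figure D1:**
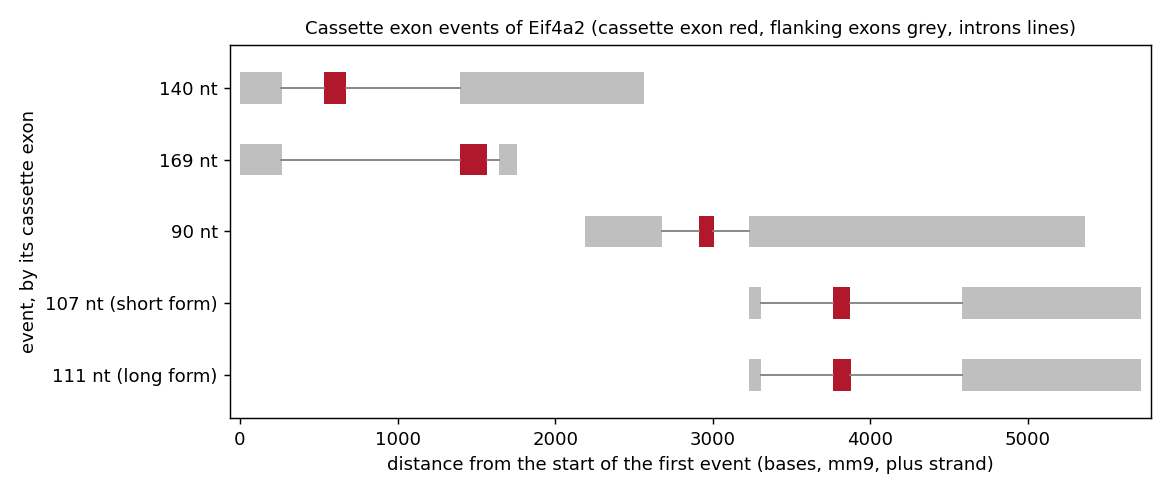
Each row is a cassette exon event of Eif4a2 drawn to scale, with distance in bases from the start of the first event along x, the cassette exon in red, flanking exons in grey and introns as lines. The short and long forms share their start and their neighbours, the 169-nt event joins its upstream exon past the position of the 140-nt exon, and the flanks of the 140-nt and 90-nt events run across introns.

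Psi estimates what part of an event's transcripts hold the exon, and is used as the authors deposited it. Psi of the long form was 0.59 in STZ A, 0.53 in STZ B and 0.54 in STZ C, against 0.09 in Control A and 0.09 in Control B. Every STZ library stood above both Control libraries, and STZ A was the highest of the 3. Of all tested exons, those with at least 10 reads telling the isoforms apart in every library, 42.9% had groups whose Psi did not overlap, 14.1% higher in STZ and 28.8% lower.

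Psi of the long form averaged 0.553 ± 0.0321 in STZ (SD, n = 3) and 0.09 ± 0 in Control (SD, n = 2), a difference of 0.46. Psi is deposited to 2 decimals, so an SD of 0 means equality at that rounding. Among the 4769 tested exons, 15 had a larger rise. The event is also deeply read, with 16506 reads telling its isoforms apart over the 5 libraries, while the median tested exon had 692.

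The short form showed the same order of groups at lower levels. Its Psi was 0.42 in STZ A, 0.39 in STZ B and 0.41 in STZ C, against 0.06 in both Control libraries, and averaged 0.407 ± 0.0153 in STZ (SD, n = 3) and 0.06 ± 0 in Control (SD, n = 2). The STZ libraries again lay well above both Control libraries, and 50 tested exons had a larger rise. Inclusion-only reads of the short form numbered 2293, 2106 and 1296 in STZ A, STZ B and STZ C, against 260 and 285 in Control A and Control B, or 154, 145 and 102 RPM in STZ and 15.2 and 13.6 in Control. The events of both forms are not independent, since each sets its own including isoform against the same skipping isoform and most of their reads are shared. Reads on the start and the upstream junction of the exon count for either form. Reads that fit the short form alone were not counted, so these values do not show how far its donor was used.

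**Figure D2:**
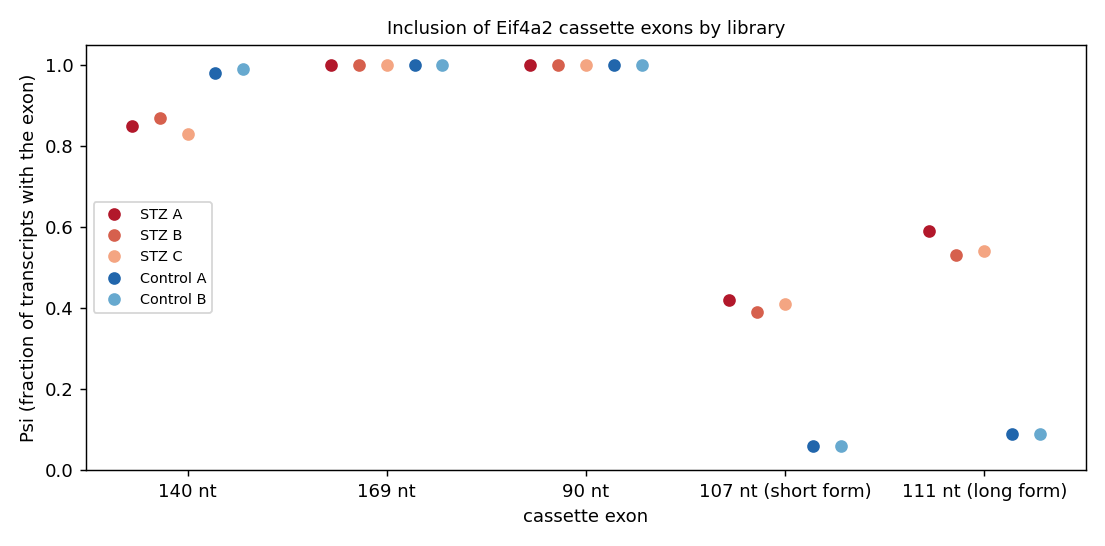
Psi is plotted for each cassette exon of Eif4a2, with 1 point per library (3 STZ in reds, 2 Control in blues). The long and short forms are higher in STZ, the 140-nt exon is lower at 0.83 to 0.87 against 0.98 and 0.99 in Control, and the 169-nt and 90-nt exons lie at 1.00 in every library.

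In the authors' deposited tables, each of which sets 1 STZ library against 1 Control library, the difference of Psi for the long form, turned here to STZ minus Control, was 0.50 with STZ A, 0.44 with STZ B and 0.45 with STZ C, the same against either Control library. For the short form it was 0.36, 0.33 and 0.35 in the authors' deposited tables. The Bayes factor, the evidence for a difference over that for none, was 1000000000000 for both forms in all 6 of the authors' deposited tables. For the 140-nt exon described below the differences in the authors' deposited tables were -0.13 and -0.14 with STZ A, -0.11 and -0.12 with STZ B and -0.15 and -0.16 with STZ C, with the same Bayes factor. Only the long and short forms, 2 of the 5 Eif4a2 events, reached, in all 6 comparisons, a Bayes factor of 10 and a difference of 0.20 with the same sign. Over all events 3.22% did so, 1.07% with more inclusion in STZ and 2.15% with less.

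The reads behind Psi were also taken for each isoform, on a scale that depends on the event reads of the library. Reads that fit only the including isoform of the long form's event numbered 4011 in STZ A, 3316 in STZ B and 1996 in STZ C, against 398 in Control A and 482 in Control B. In RPM these were 269, 228 and 157 in STZ, against 23.2 and 23.0 in Control. The STZ levels were all several times those of Control but spread widely among themselves, with STZ C lowest.

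Reads that fit only the skipping isoform, which keeps the full reading frame, numbered 1174, 1176 and 621 in STZ A, STZ B and STZ C, against 1445 and 1887 in Control A and Control B. In RPM they came to 78.7, 80.9 and 48.9 in STZ and to 84.2 and 90.0 in Control. All 3 STZ libraries lay below both Control libraries, but STZ A and STZ B did so by little, and STZ C was far lower than either. The mean was 69.5 ± 17.9 in STZ (SD, n = 3) and 87.1 ± 4.09 in Control (SD, n = 2), while inclusion reads averaged 218 ± 56.5 in STZ and 23.1 ± 0.147 in Control. The inclusion reads thus had a ratio of STZ to Control of 9.44 and the skipping reads one of 0.798. With median-of-ratios size factors the log2 ratio of all reads on the event moved from 0.67 to 0.93. These read classes were not rescaled in that way.

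Scaled within the gene, the order of the groups was the same. Per 100 reads of the 90-nt exon, which every library includes, inclusion-only reads of the long form were 112, 88.8 and 74.3 in STZ A, STZ B and STZ C, against 10.8 and 10.6 in Control A and Control B. Skipping-only reads per 100 were 32.8, 31.5 and 23.1 in STZ, against 39.2 and 41.7 in Control. On this scale too no STZ library overlapped a Control library in either class. For single classes of reads, in RPM or on this scale, the share of all tested exons without overlap was not counted.

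The share of inclusion-only reads among inclusion-only and skipping-only reads, which has no correction for exon length, lay above Psi. It was 0.774, 0.738 and 0.763 in STZ A, STZ B and STZ C, with 95% Wilson intervals from 0.762 to 0.785, 0.725 to 0.751 and 0.746 to 0.779. In Control A and Control B it was 0.216 and 0.203, with intervals from 0.198 to 0.235 and from 0.188 to 0.220. These intervals cover counting error only. The level of inclusion differed between these measures, and on both of them the groups were far apart.

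**Figure D3:**
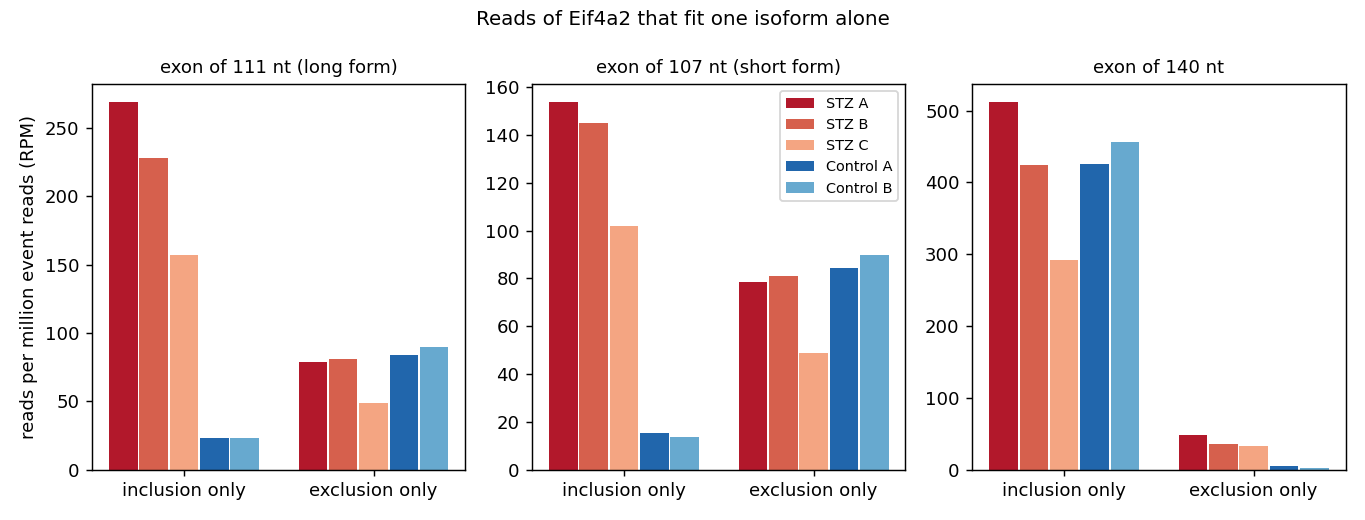
Bars give reads that fit one isoform alone, in RPM, for the long form, the short form and the 140-nt exon, with 3 STZ bars in reds left of 2 Control bars in blues and a separate y axis for each exon. Inclusion-only reads of the long form reach 157 to 269 in STZ and 23.0 to 23.2 in Control, while skipping-only reads are 48.9 to 80.9 in STZ and 84.2 to 90.0 in Control.

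The tandem donors were compared through the reads that fit the long form and not the short form. The inclusion-only count of the short form was 57.2%, 63.5% and 64.9% of that of the long form in STZ A, STZ B and STZ C, against 65.3% and 59.1% in Control A and Control B. The groups overlapped, with means of 61.9% ± 4.13 in STZ (SD, n = 3) and 62.2% ± 4.38 in Control (SD, n = 2). Both events drew on the same number of reads in each library, with nearly equal counts in the classes of skipping-only reads and of reads fitting both isoforms. The surplus of 1718, 1210 and 700 reads in STZ, and of 138 and 197 in Control, therefore had to stand among those fitting neither isoform of the short form's event. Inclusion of the exon thus differed widely between the groups, while this percentage differed by less than its spread. The surplus is a net count, which reads that fit the short form alone would lower. The percentage also counts reads on the stretch that both forms share, so it does not measure the choice of donor alone.

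The other Eif4a2 exon whose groups stood apart is a coding exon of 140 nt at 23109193 to 23109332 in mm9, which 6 of the 25 GENCODE transcripts hold. It is printed whole because it carries the codons of the Walker A motif, the nucleotide-binding site of DEAD-box helicases, shown in capitals in bases 21 to 44 of the exon. The pattern searched was alanine or glycine, any 4 residues, glycine, lysine, then serine or threonine, and it occurred once in the coding sequence of Eif4a2-201. The second sequence shows what skipping makes, the last 30 bases of the 133-nt exon upstream (GRCm38 chr16:23108822-23108851) joined to the first 83 of the 169-nt exon downstream (chr16:23109985-23110067), with the new in-frame stop in capitals.
Exon of 140 nt, GRCm38 chr16:23109120-23109259, plus strand: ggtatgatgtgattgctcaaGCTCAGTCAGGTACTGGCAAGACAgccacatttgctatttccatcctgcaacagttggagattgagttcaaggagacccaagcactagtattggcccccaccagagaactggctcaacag
Exon of 140 nt skipped: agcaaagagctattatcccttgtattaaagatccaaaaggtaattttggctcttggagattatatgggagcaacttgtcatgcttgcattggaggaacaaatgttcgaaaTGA
With the 140-nt exon left out the frame closes after 96 codons. GENCODE joins these flanking exons in 5 transcripts. Eif4a2-210 and Eif4a2-217 are of the class nonsense-mediated decay and Eif4a2-223 of the class protein coding. Eif4a2-207 is classed as retained intron and Eif4a2-215 as processed transcript.

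Psi of the 140-nt exon was 0.85, 0.87 and 0.83 in STZ A, STZ B and STZ C, against 0.98 and 0.99 in Control A and Control B. All STZ libraries were below both Control libraries. The mean was 0.85 ± 0.02 in STZ (SD, n = 3) and 0.985 ± 0.00707 in Control (SD, n = 2), a difference of -0.14. Among all tested exons, 590 had a larger fall.

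Skipping-only reads of the 140-nt exon carried that difference. They numbered 725, 527 and 414 in STZ A, STZ B and STZ C, against 91 and 52 in Control A and Control B. In RPM they were 48.6, 36.3 and 32.6 in STZ, against 5.30 and 2.48 in Control, so every STZ library was above both Control libraries. Inclusion-only reads in RPM were 512, 424 and 292 in STZ and 426 and 457 in Control, and on this measure the groups overlapped. Within the gene, per 100 inclusion-only reads of the 90-nt exon, skipping-only reads of the 140-nt exon were 20.3, 14.1 and 15.4 in STZ, against 2.47 and 1.15 in Control. At both the 140-nt exon and the long form the isoform with the early stop had a higher read level in STZ than in Control. Reads on the start and upstream junction of the long form can also come from the 1596-nt last exon of Eif4a2-202. These were not separated.

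Both remaining exons had a Psi of 1 in every library. The 169-nt exon, the one the files name as Eif4a2, had no read that fits only its skipping isoform, 0 against 6213, 4521 and 2879 inclusion-only reads in STZ A, STZ B and STZ C, and 0 against 3496 and 4522 in Control A and Control B. A count of 0 allows a share of up to 0.104% in STZ C, the shallowest, and of 0.0483% in STZ A, the deepest. In its event the exon upstream ends where the 133-nt exon ends and joins the 169-nt exon directly, so its including isoform already lacks the 140-nt exon. The skipping isoform of this event lacks both exons. A transcript that holds the 140-nt exon and skips the 169-nt exon would fit neither isoform. The count of 0 and its limit therefore do not cover such transcripts. Inclusion-only reads of this event were 417, 311 and 227 RPM in STZ A, STZ B and STZ C, against 204 and 216 in Control A and Control B. Each STZ library was above both Control libraries. Such reads can lie within the 169-nt exon or on its downstream junction, which transcripts with the 140-nt exon share. They are therefore not a level of the isoform without the 140-nt exon. The reads of this event that fit neither isoform made up 68.8% to 71.2% in STZ and 76.9% to 77.4% in Control. The 90-nt exon had 3, 1 and 0 skipping-only reads in STZ and 3 in each Control library, beside 3580, 3736 and 2686 inclusion-only reads in STZ and 3686 and 4528 in Control.

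Reads on Eif4a2 as a whole depended on which part of the gene and which class of reads was counted. The event of the long form, which spans the last exon, took 2740, 2632 and 2036 RPM in STZ A, STZ B and STZ C, against 1621 and 1475 in Control A and Control B, with no overlap. Its log2 ratio was 0.67, where the median over all tested exons was -0.20, and the RPM of an event did not overlap between the groups at 73% of tested exons, 27.7% higher in STZ and 45.3% lower. The event of the 140-nt exon, farther upstream, took 1836, 1470 and 1103 in STZ and 1218 and 1221 in Control, which overlap. Inclusion-only reads of the 90-nt exon were 240, 257 and 212 RPM in STZ and 215 and 216 in Control, again overlapping. The downstream flank of the 90-nt event is 2131 nt long and runs past the cassette exon, and reads that fit both isoforms of that event were 2150, 2064 and 1654 RPM in STZ and 1346 and 1222 in Control. Reads on Eif4a2 thus did not overlap between the groups around the last exons, where the cassette exon lies, and overlapped at the junctions of the 90-nt exon. Farther upstream the classes of reads differed. Reads that fit both isoforms of the 140-nt event were 536, 411 and 310 RPM in STZ and 278 and 286 in Control, without overlap. The inclusion-only reads of the 169-nt exon also did not overlap, while those of the 140-nt exon did. Of the reads on the event of the long form, 26.9% to 32.1% in STZ and 31.0% and 32.2% in Control fit neither isoform.

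Other genes held exons with nearly the same Psi across the libraries. By the mean absolute difference of Psi from the long form over all 5 libraries, the nearest 6 exons outside Eif4a2 were in Mbnl2 (95 nt, 0.026), Chfr (73 nt, 0.038), Rnf207 (192 nt, 0.04), Tra2b (276 nt, 0.042), Picalm (150 nt, 0.042) and Srsf7 (460 nt, 0.05). Mbnl2, Tra2b and Srsf7 are RNA-binding splicing regulators, Picalm is a clathrin assembly protein, and Chfr and Rnf207 are RING finger proteins. The exon of Mbnl2 had a Psi of 0.58, 0.48 and 0.51 in STZ A, STZ B and STZ C, against 0.10 and 0.12 in Control A and Control B. That of Tra2b had 0.61, 0.55 and 0.43 in STZ, against 0.07 and 0.05 in Control. The exon of Chfr rests on 24 to 27 informative reads in STZ libraries and 14 and 20 in Control libraries, against 2617 to 5185 and 1843 and 2369 for the long form. The likeness held less well for the read share. In Control A and Control B that share was 0.825 and 0.773 for Srsf7, 0.505 and 0.634 for Rnf207 and 0.490 and 0.487 for Picalm. The long form had 0.216 and 0.203, with Mbnl2 (0.300 and 0.312), Chfr (0.1 and 0.143) and Tra2b (0.373 and 0.267) nearer to it. All 7 exons share the 5 libraries and their depths, and likeness was sought among levels that include the choice of Eif4a2, so no test goes with it.

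**Figure D4:**
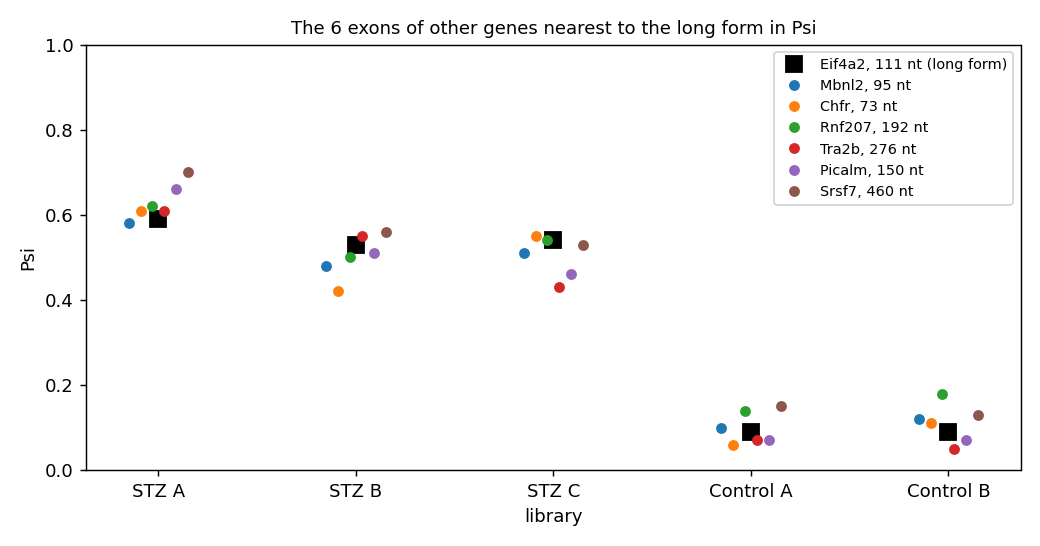
Psi by library is plotted for the long form of the Eif4a2 exon (black squares) and for the 6 exons of other genes nearest to it (coloured circles), with STZ libraries on the left and Control libraries on the right. The exons lie between 0.42 and 0.70 in STZ and between 0.05 and 0.18 in Control.

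Among the genes that work beside Eif4a2 in translation initiation, inclusion was lower in STZ at 7 of 35 tested exons (20%) and higher at 0, by limma's adjusted p under 0.05 over all tested exons. Over all 4769 tested exons 15% were called, 10.1% lower and 4.84% higher. At an unadjusted p under 0.05 the list had 8 exons lower and 1 higher, with no share of all tested exons counted at that threshold. The list's median difference of Psi was -0.0083 where that of all tested exons was -0.01. A 94-nt exon of Eif4g1, the main scaffold of eIF4F, fell to 0.89 ± 0.01 in STZ (n = 3), against 0.99 ± 0 in Control (n = 2), in limma with an adjusted p of 0.00241. It had only 14, 5 and 3 skipping-only reads in STZ A, STZ B and STZ C, and 1 in each Control library. A 114-nt exon of Eif4g2, an eIF4G relative that lacks the eIF4E-binding site, fell to 0.73 ± 0.0173 in STZ, against 0.945 ± 0.00707 in Control (limma, adjusted p = 0.00491), with 469, 276 and 244 skipping-only reads in STZ A, STZ B and STZ C and 61 and 100 in Control A and Control B.

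Inclusion also fell at a 72-nt exon of Eif4enif1, which binds eIF4E and carries it into the nucleus, at 0.317 ± 0.00577 in STZ and 0.65 ± 0.0707 in Control (limma, adjusted p = 0.0197). A 90-nt exon of Pabpc4, a cytoplasmic poly(A)-binding protein, was at 0.563 ± 0.0115 in STZ and 0.865 ± 0.0354 in Control (limma, adjusted p = 0.0155), and its 87-nt form, from the same start, at 0.817 ± 0.0306 and 0.94 ± 0 (limma, adjusted p = 0.021). Both Pabpc4 events had only 3 to 5 skipping-only reads per library, and neither passed when the read share replaced Psi (limma, adjusted p = 0.105 and 0.16). A 46-nt exon of Mcts1, which helps recycle ribosomes, was at 0.0367 ± 0.00577 in STZ and 0.085 ± 0.00707 in Control (limma, adjusted p = 0.0311), and it did not pass with the read share (limma, adjusted p = 0.0598). The calls of Eif4g1 and Eif4g2 held with any 1 library left out (adjusted p up to 0.0207 and 0.0286). Without STZ A, STZ B or STZ C those of Eif4enif1 and the 90-nt Pabpc4 exon missed the threshold (up to 0.0761 and 0.0628), as did Mcts1 without any library but STZ C (0.144) and the 87-nt Pabpc4 exon without any but STZ A (0.111).

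Of the 6 partner genes with a tested exon 4 did not pass. The best-read exons of Eif4h (0.983 ± 0.0115 in STZ and 0.99 ± 0 in Control), Eif4g3 (0.99 ± 0 in both) and Eif4e (0.967 ± 0.0115 and 0.98 ± 0.0141) had adjusted p-values of 0.652, 1 and 0.458 in limma. Cnot1, the scaffold of the CCR4-NOT deadenylase, was at 0.877 ± 0.0808 in STZ and 0.98 ± 0 in Control at a 109-nt exon (limma, adjusted p = 0.125), and passed when the read share replaced Psi (adjusted p = 0.0139). Eif4a1, Eif4a3, Eif4b, Eif4e2, Pdcd4 and Ddx6 each had 0 events present in every comparison, so no exon of these genes was tested. The exons of Eif4a2 can therefore not be set against those of its paralogs.

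Of the other helicases of the DEAD and DEAH families 1 of 16 tested exons was higher in STZ and 3 were lower (25% called, where 15% of all tested exons were). A 110-nt exon of Ddx50, a nucleolar helicase, rose to 0.673 ± 0.00577 in STZ, against 0.385 ± 0.0212 in Control (limma, adjusted p = 0.00395), and its call held with any 1 library left out (adjusted p up to 0.0282). Exons of Dhx30 (126 nt, 0.633 in STZ and 0.94 in Control), Ddx42 (37 nt, 0.897 and 0.985) and Ddx50 (162 nt, 0.933 and 0.985) fell with adjusted p-values of 0.026, 0.0434 and 0.0494 in limma. Each of these 3 missed the threshold when any 1 of the 5 libraries was left out (0.053 to 0.152). The exon of Dhx30 had 0 to 3 skipping-only reads in every library and did not pass with the read share (limma, adjusted p = 0.146).

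eIF4A-II has also been linked to the CCR4-NOT complex and to repression by miRNAs. Of that list 4 of 24 tested exons were lower in STZ and 0 higher by limma's adjusted p. That is 16.7% called, near the 15% of all tested exons. At an unadjusted p under 0.05 in limma 10 were lower and 0 higher, but the share of all tested exons at that threshold was not counted. The median difference of Psi in the list was -0.054. Lsm14a, a protein of RNA granules that represses translation, fell at exons of 57 nt (0.57 ± 0.03 in STZ and 0.865 ± 0.0212 in Control, limma adjusted p = 0.0107) and 177 nt (0.427 ± 0.0115 and 0.72 ± 0.0566, limma adjusted p = 0.0198). Exons of Tnrc6a (33 nt, 0.573 in STZ and 0.88 in Control) and Tnrc6b (159 nt, 0.583 and 0.84), scaffolds of the miRNA silencing complex, fell with adjusted p-values of 0.0453 and 0.0354 in limma. The Tnrc6a call was lost with the read share (limma, adjusted p = 0.0593) and without any 1 library (up to 0.176), that of Tnrc6b without any but STZ A (0.157), that of the 177-nt Lsm14a exon without any 1 STZ library (0.0784) and that of the 57-nt exon without STZ B (0.0525).

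Genes of nonsense-mediated decay had 6 tested exons in 5 genes. Of these 1 was called, 16.7%, lower in STZ, a 59-nt exon of Magohb, a subunit of the exon junction complex (0.923 ± 0.0208 in STZ and 0.995 ± 0.00707 in Control, limma adjusted p = 0.0159). No library had a skipping-only read at it, although Psi was below 1 in STZ, and the call was lost when either Control library or STZ C was left out (up to 0.087). At an unadjusted p under 0.05 the list had 1 exon higher and 2 lower, again with no share of all tested exons to set beside it.

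**Figure D5:**
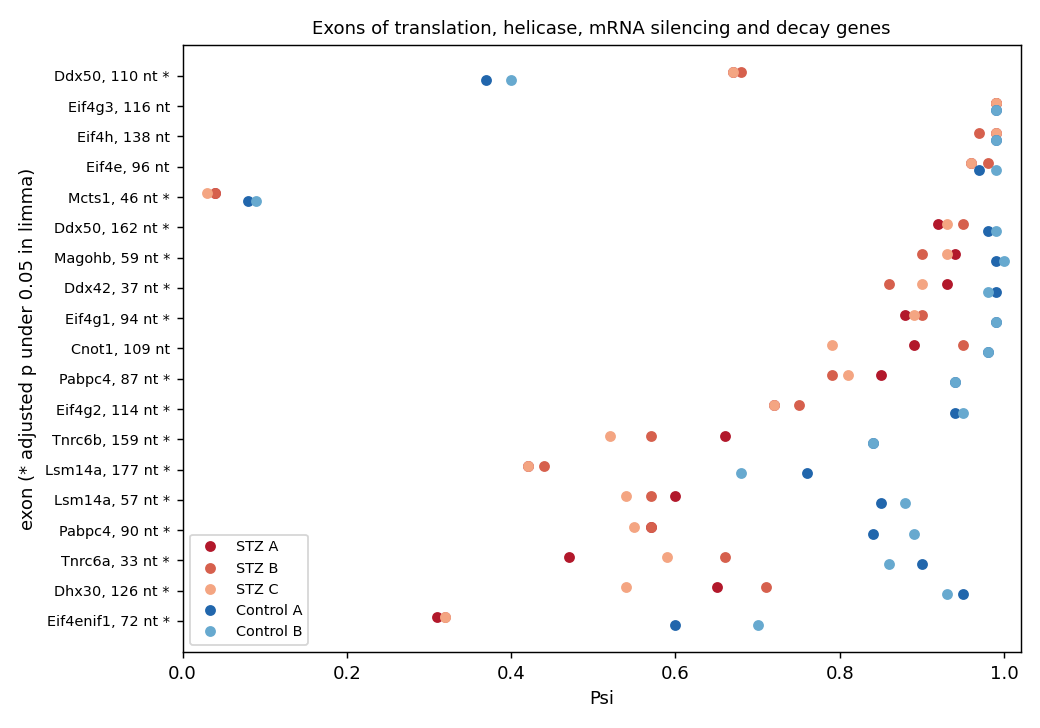
Psi in each library is plotted for the named exons of translation, helicase, mRNA silencing and decay genes, 1 row per exon, with 3 STZ libraries in red above 2 Control libraries in blue and an asterisk at an adjusted p under 0.05 in limma. Most called exons lie to the left in STZ, and the 110-nt exon of Ddx50, at 0.67 to 0.68 in STZ and 0.37 and 0.40 in Control, lies to the right.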

How the data were processed

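RNA of mouse left ventricle was sequenced. The submitters' processing notes list CASAVA 1.8.2, TopHat and the genome build mm9. The authors compared cassette exons with MISO, 1 library against 1 other, per the file headers; neither its version nor its event annotation is given in the sources used here. The authors deposited Psi, a fraction, rounded to 2 decimals. Reads per event in 4 classes are deposited as raw counts in text cells. The authors' difference is the Psi of the first library minus that of the second, and their Bayes factor is a ratio, per the file headers. Of 44896 library values present in more than 1 table, 0 differed, and 36 other columns of values per library were not used.

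Events were named by the symbol in the files, then by GENCODE M21 exon and intron lengths. Exons with at least 10 informative reads (inclusion-only plus exclusion-only) in every library were tested in limma 3.58.1 on the logit of Psi, clipped at 0.01, with a variance trend on reads, two-sided, with Benjamini-Hochberg adjustment over all tested exons. Reads were scaled to the sum of all event reads of a library. Named are every Eif4a2 event, the 6 exons nearest in Psi, in each list up to 6 called exons with the largest difference, and the best-read exon of 12 partner genes. The gene and lists were chosen with earlier results of these data known, and the lists share genes. The limma script was tested on simulated data. Alternatives changed the read minimum, clip, scale, trend and libraries.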

Additional observations from a re-analysis of the deposited data

How the results depend on the processing

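The Psi differences of the long form, the short form and the 140-nt exon kept their direction under all settings tried. With the read share in place of Psi, the STZ minus Control difference was 0.548 for the long form, 0.518 for the short form, -0.0798 for the 140-nt and 0.000369 for the 90-nt exon, and with pooled reads 0.549, 0.517, -0.0785 and 0.00033. With inclusion reads divided by 2 it was 0.494 for the long form, 0.416 for the short form and 0.000738 for the 90-nt exon. Leaving out 1 library gave 0.445 to 0.475, 0.34 to 0.355 and -0.145 to -0.125 for the long form, the short form and the 140-nt exon, and 0 to 0 for the 169-nt and 90-nt exons. The log2 ratio of event reads, 0.67 for the long and short forms and 0.63 for the 90-nt event, was 0.93 and 0.89 with median-of-ratios size factors. That of the 169-nt event, 0.23, was 0.68 without reads that fit neither isoform. Without 1 library these ratios ran from 0.59 to 0.80, 0.56 to 0.75, 0.08 to 0.44 (140-nt) and 0.04 to 0.40 (169-nt), the last 2 lowest without STZ A and highest without STZ C. No paired analysis was possible because the columns carry no replicate numbers.

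Over all tested exons, 231 were called higher and 482 lower by limma. Without 1 library (a lone Control library being assumed to vary like STZ) these were 93 to 159 and 180 to 307, with Psi clipped at 0.05 321 were lower, and by the Bayes factor rule 68 were higher and 136 lower. Translation exons called lower numbered 2 to 6 without 1 library and 2 under that rule, and those called higher 0 to 0, with 1 by read share. Helicase exons called lower were 0 to 0 without 1 library, 1 with Psi clipped at 0.05, 0 with Psi on its own scale and 0 under the rule, while 1 to 1 was higher. CCR4-NOT exons called lower were 1 to 3 without 1 library and 2 with that clip, that scale and that rule, and higher 0 to 2, with 1 by read share. Decay exons called lower were 0 to 1 without 1 library and 0 with that clip, that scale and that rule, and higher 0 to 1, with 1 by read share. All these counts are from limma except those under the rule. The limma counts at an unadjusted p stand with the translation, CCR4-NOT and decay lists. The causes were not tested.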
